A study of Homo sapiens with 8 samples.

Results

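The S100 genes encode small proteins that bind calcium through EF-hand motifs, pair as dimers and, on binding calcium, expose a surface that grips partners such as annexins, myosin and ezrin. Most of them lie in a cluster on the long arm of chromosome 1, interleaved with genes of epidermal differentiation, and many are strongly transcribed in carcinoma cells. Acetylation of histone H3 at lysine 27 (H3K27ac) marks active promoters and enhancers. The genes described here are 10 S100 genes chosen by name: S100A2, S100A4, S100A6, S100A8, S100A9, S100A10, S100A11, S100A14, S100A16 and S100P. Of these, 9 had a row in the deposited table, paired with 47 distinct H3K27ac peaks in 64 pairs, out of 43869 genes and 126470 peaks in all.

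The cells were H3122, an established lung adenocarcinoma line that depends on an EML4-ALK fusion, and 3 derivatives of it in which resistance had evolved under stepwise higher doses of an ALK inhibitor. These were erCriz0 (0.5 µM crizotinib), erAlec0 (2 µM alectinib) and erLor0 (2 µM lorlatinib). Whether each derivative kept the fusion was not examined here. Cells for RNA were sampled after a period without inhibitor, and the labels of the ChIP samples give DMSO as the vehicle. Each line gave 1 RNA library and 1 H3K27ac ChIP library, so no difference between lines has a replicate check, no test was run and no SD can be given. The naive library is shared by all 3 comparisons, so 3 similar changes are not 3 independent observations.

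Every value is an rlog, a log2 of normalised reads that the authors computed and that draws features with few reads toward their mean over the libraries. A change is a difference between 2 rlog values, the resistant line's minus the naive line's, and a gene or peak was counted as raised or lowered at a change of at least 1 in size. A gene was counted as expressed at an rlog of at least 4.64, the log2 of 25, in at least 1 library, which held for 12701 genes and for all 9 S100 genes in the table. Depth cannot be recovered from rlog values, so counting error is unknown. A series of 4 levels below is in the order naive, erCriz0, erAlec0, erLor0, and a series of 3 changes in the order erCriz0, erAlec0, erLor0. In bulk RNA, a change in the number of cells that use a gene and a change in RNA per cell cannot be told apart.

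Of 8 markers of lung epithelial cancer cells, 7 were expressed, with NAPSA below the limit in every library. EPCAM lay between 12.34 in naive and 12.64 in erCriz0, while the 4 levels of ALK were 8.18, 10.65, 9.58 and 8.10. None of the 7 myeloid markers in the table passed the expression limit in any library. The highest of them, CD14, lay between 4.31 and 4.53, and PTPRC, MPO, FCGR3A and TYROBP were listed at 0 in all 4. Of 5 fibroblast markers 4 were in the table and COL1A1 alone was expressed, at 9.49, 9.71, 9.99 and 10.08. Among 6 keratinocyte markers 5 were in the table and 2 were expressed. These were KRT6A, a keratin of activated squamous epithelium, with changes of 3.11, 1.05 and 1.01, and TP63, with changes of -0.01, 0.77 and -0.16.

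Of the 9 genes, 8 lie on chromosome 1 and S100P lies on chromosome 4. In hg38, S100A10 (ENSG00000197747.9, positions 151982915 to 151993859, minus strand) and S100A11 (ENSG00000163191.6, 152032506 to 152047907, minus strand) neighbour each other. S100A9 (ENSG00000163220.11, 153357854 to 153361023) is the only one of the 8 on the plus strand. Then follow S100A6 (ENSG00000197956.10, 153534599 to 153536244), S100A4 (ENSG00000196154.12, 153543613 to 153550136), S100A2 (ENSG00000196754.12, 153561108 to 153567890), S100A16 (ENSG00000188643.11, 153606886 to 153613145) and S100A14 (ENSG00000189334.9, 153614255 to 153616986), all on the minus strand. S100P (ENSG00000163993.7, 6693878 to 6697170) is on the plus strand of chromosome 4. S100A8, which encodes the partner of S100A9 in calprotectin, has no row and is not analysed here. Its gene body, at 153390032 to 153391073, lies 24894 bp from the nearest peak, beyond the 20 kb within which genes were paired.

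Several of these genes share a core promoter feature. The letters TATAA were found on the gene's strand in the 250 bases before the start of 5 of the 9 genes, S100A4, S100A6, S100A9, S100A14 and S100P, and of 13.6% of 35116 RefSeq promoters of the same length. In all 5 the match begins 28 to 31 bases before the start, whereas 3.62% of all promoters have one beginning 24 to 35 bases before it. The promoters of these 5 are shown because they include the genes with the largest RNA changes and S100P, which had the narrowest range over the lines. They are given 5′ to 3′ on the gene's strand with TATAA in capitals, from RefSeq on GRCh38.p14, at chr1:153357604-153357853 (plus), chr1:153545807-153546056 (minus), chr1:153535992-153536241 (minus), chr1:153616326-153616575 (minus) and chr4:6693628-6693877 (plus).
S100A9: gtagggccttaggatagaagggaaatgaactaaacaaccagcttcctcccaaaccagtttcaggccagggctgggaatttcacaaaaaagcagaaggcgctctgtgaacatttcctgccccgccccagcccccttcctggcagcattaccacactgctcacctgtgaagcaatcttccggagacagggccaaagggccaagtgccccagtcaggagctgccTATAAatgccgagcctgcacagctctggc
S100A4: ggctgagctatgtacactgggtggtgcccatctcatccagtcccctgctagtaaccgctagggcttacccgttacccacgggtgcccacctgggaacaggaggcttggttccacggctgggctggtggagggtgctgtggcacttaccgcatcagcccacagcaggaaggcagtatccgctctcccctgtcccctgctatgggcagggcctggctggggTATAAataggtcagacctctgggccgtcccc
S100A6: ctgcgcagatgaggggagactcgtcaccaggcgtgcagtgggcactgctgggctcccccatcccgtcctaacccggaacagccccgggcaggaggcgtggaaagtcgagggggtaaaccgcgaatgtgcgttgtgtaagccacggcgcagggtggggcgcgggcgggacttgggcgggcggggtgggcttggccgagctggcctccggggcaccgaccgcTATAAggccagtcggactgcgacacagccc
S100A14: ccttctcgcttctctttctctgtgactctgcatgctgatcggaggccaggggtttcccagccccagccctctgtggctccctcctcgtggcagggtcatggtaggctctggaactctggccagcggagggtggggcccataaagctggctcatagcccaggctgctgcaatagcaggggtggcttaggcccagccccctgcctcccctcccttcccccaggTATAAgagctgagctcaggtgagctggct
S100P: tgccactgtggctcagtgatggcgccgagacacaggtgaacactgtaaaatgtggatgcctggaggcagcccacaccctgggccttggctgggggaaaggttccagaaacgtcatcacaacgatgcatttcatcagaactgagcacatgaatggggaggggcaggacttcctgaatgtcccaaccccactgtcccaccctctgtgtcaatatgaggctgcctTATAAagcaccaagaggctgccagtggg
Other motifs were less shared. TGANTCA, the AP-1 motif, which reads alike on both strands, was in the promoter of S100A2 alone against 6.57% of all promoters. GGGCGG, searched on both strands, was in 4 of 9 against 42.6%, and TTCNNNGAA, likewise on both strands, was in 0 of 9 against 6.57%. No match overlapped another motif. The share of G and C in these windows ranged from 55.6% in S100A9 and S100P to 71.2% in S100A10, against a median of 58% over all promoters. A match is a run of letters and not evidence of binding.

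In therapy-naive cells 6 of the S100 genes were far more abundant than the other 3. Per kilobase of transcript (rlog minus the log2 of transcript length in kb), S100A11 was at 16.74, S100A14 and S100A10 both at 14.79, S100P at 14.18, S100A16 at 13.68 and S100A6 at 13.51. Those 6 levels placed at ranks 2, 9, 10, 19, 40 and 45 among 12683 expressed genes with a transcript length. S100A2 at 8.94, S100A9 at 7.68 and S100A4 at 6.86 stood at ranks 1398, 3459 and 5394. With 1 library a line it cannot be said which neighbours in this order differ. The first 6 genes stayed above the other 3 in every line, although S100A9 reached 11.77 and rank 174 in erCriz0, and S100A11 stayed at rank 2 in each.

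**Figure D1:**
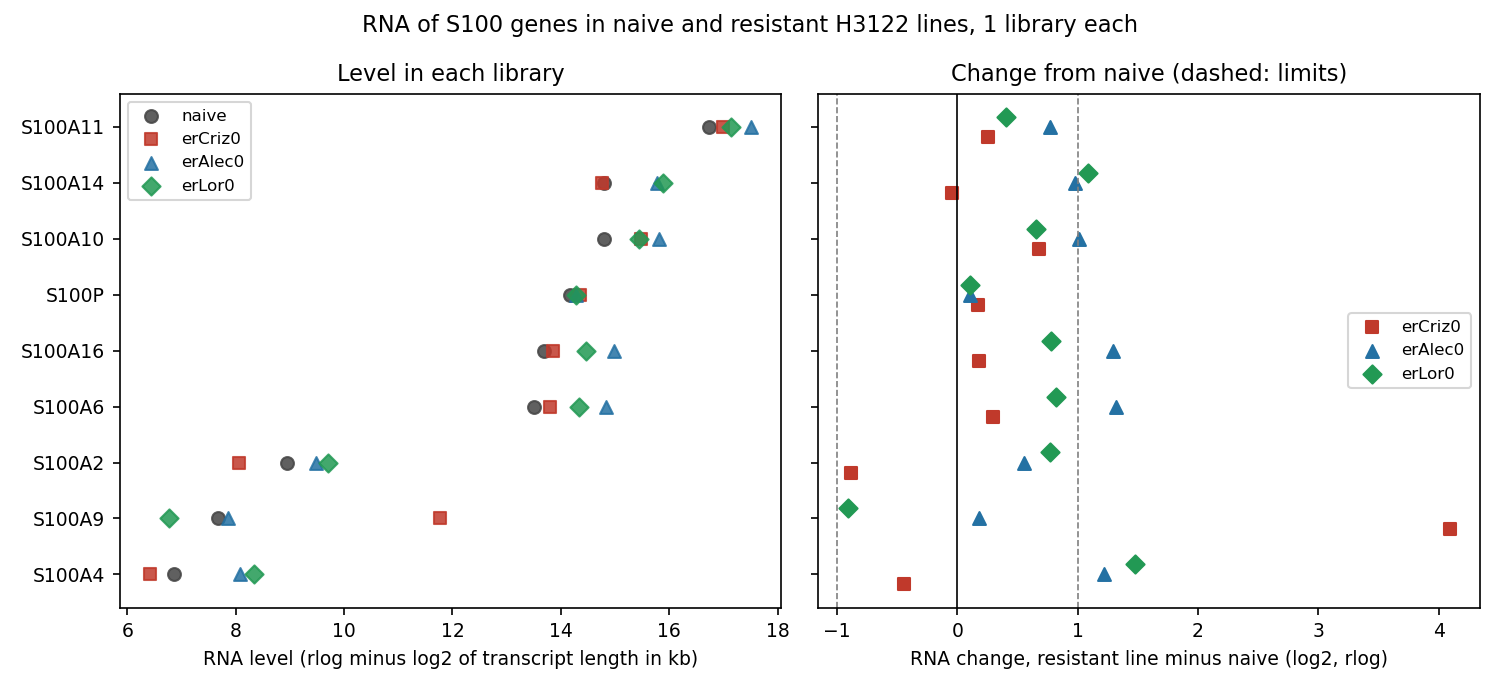
RNA of 9 S100 genes. Left, level per kilobase of transcript (rlog minus log2 of length in kb) in the naive, erCriz0, erAlec0 and erLor0 libraries, 1 point a library. Right, rlog change from naive in each resistant line, with dashed lines at -1 and 1. S100A9 stands at 4.09 in erCriz0, and the erAlec0 points lie at 0.10 or above for every gene.

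Resistant cells mostly had as much S100 RNA as naive cells or more. In erAlec0 all 9 genes were higher than in naive, by a median of 0.98, and 4 were raised (S100A4, S100A6, S100A10 and S100A16, 44.4%). In erLor0 8 of 9 were higher, with a median of 0.77, and 2 were raised (S100A4 and S100A14, 22.2%). In erCriz0 6 were higher and 3 lower, with a median of 0.18, and S100A9 alone was raised (11.1%). No S100 gene was lowered in any line. Over all expressed genes 2.65% were raised and 1.65% lowered in erCriz0. The shares were 2.46% raised and 2.07% lowered for erAlec0, and 1.1% raised and 0.74% lowered for erLor0, with medians of -0.02, 0.00 and -0.00. Among the 380 genes with a mean rlog of at least 12, the range of the abundant S100 genes, the medians were 0.08, 0.12 and 0.10 and the raised shares 2.63%, 4.47% and 1.05%. Under quantile normalization the raised genes numbered 2 in erAlec0 and 1 in erLor0, S100A16 in erCriz0 moved from 0.18 to -0.02 and S100P in erAlec0 from 0.10 to -0.04. That method sets each value from its rank alone, which is coarse at the highest levels, where genes are few. Centring each library on its median turned S100A14 in erCriz0 from -0.04 to 0.01.

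S100A9 encodes a subunit of calprotectin, the antimicrobial S100 protein of neutrophils, which stressed epithelia also make. Its 4 RNA levels were 6.87, 10.97, 7.06 and 5.96. The erCriz0 library thus stood far above the other 3, which lay within 1.09 of each other. The change in erCriz0 was 4.09, or 17.1-fold on the rlog scale, and lifted S100A9 from rank 3459 to rank 174 per kilobase. In erLor0 the change was -0.91, short of the limit, and in erAlec0 it was 0.18. Without S100A9, 0 of the other 8 genes were raised in erCriz0. The myeloid markers given above were unexpressed in erCriz0 as in the other lines, with CD14 changing by -0.12. The keratinocyte marker KRT6A changed by 3.11 in erCriz0, but also by 1.05 in erAlec0 and 1.01 in erLor0. TP63 changed by -0.01 in erCriz0, and KRT5, DSG3 and IVL were unexpressed in every line. The part of squamous features in the S100A9 value was not tested.

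S100A4 encodes metastasin, which binds non-muscle myosin and is widely used as a mesenchymal marker. It had the lowest level per kilobase of the 9 in naive and the largest rise in erLor0. Its 4 rlog levels were 5.90, 5.45, 7.11 and 7.38. The later-generation inhibitor lines stood above naive by 1.22 and 1.48, or 2.32-fold and 2.79-fold, and erCriz0 stood 0.45 below it. S100A3 lies within the S100A4 gene on the same strand, and its own changes were 0.16, 0.70 and 0.51. Reads that both could claim were not separable here. COL1A1, the fibroblast marker that was expressed, changed by 0.22, 0.50 and 0.59, and its part in the S100A4 values was not tested.

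S100A2 is a nuclear S100 protein of basal epithelium and lies under the same acetylated domain as S100A4. Its 4 rlog levels were 8.91, 8.02, 9.46 and 9.68. The order of the 4 lines was the same as for S100A4, with erCriz0 lowest and erLor0 highest, but no change reached the limit (-0.88, 0.55 and 0.77).

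S100A6 (calcyclin), S100A10 (p11, the partner of annexin A2 that has lost calcium control) and S100A16 were highest in erAlec0. S100A6 was at 12.30, 12.60, 13.62 and 13.12, and S100A16 at 13.91, 14.09, 15.20 and 14.69. Both rose by about the same amount in erAlec0 (1.32 and 1.29) and stayed under the limit in erLor0 (0.82 and 0.78) and erCriz0 (0.30 and 0.18). S100A10 was at 14.21, 14.89, 15.23 and 14.86, and was the abundant gene with the largest change in erCriz0 (0.68). Its change of 1.01 in erAlec0 lies at the limit and became 0.68 under quantile normalization, which also took S100A16 from 1.29 to 0.90.

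S100A14, an S100 protein of epithelia, was at 14.87, 14.83, 15.85 and 15.96. It neighbours S100A16, yet it was highest in erLor0 and S100A16 in erAlec0. Its changes were -0.04, 0.98 and 1.09. The erAlec0 value lies just under the limit and became 1.01 on centring, and the erLor0 value became 0.82 under quantile normalization, so whether this gene counts as raised turned on the scaling.

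S100A11 (calgizzarin, a partner of annexin A1) and S100P, a ligand of ezrin that many adenocarcinomas make, did not reach the limit in any line. S100A11 was at 15.91, 16.17, 16.68 and 16.31, with changes of 0.25, 0.77 and 0.40. Processed pseudogenes of S100A11 could share its reads, which makes its level less certain. S100P was at 13.09, 13.27, 13.20 and 13.20. The 4 lines thus lay within 0.17 of each other, the narrowest range of the 9.

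Of 11 further S100 genes 6 were in the table and 3 expressed. These 3, S100A1, S100A3 and S100A13, were above naive in every line, with median changes of 0.16, 0.93 and 0.51. S100A1 was raised in erAlec0 (levels of 4.29, 4.38, 5.43 and 4.67). S100A13, which overlaps S100A1 on the other strand, changed by 0.87, 0.93 and 0.55. The strand setting of the read counting is not given in the sources used here, so reads of S100A1 and S100A13 cannot be told apart. Of 14 binding partners and receptors, all expressed, 1 was raised in each line and 0 were lowered, with medians of 0.23, 0.10 and 0.00. The raised gene was ANXA1 in each line, the annexin bound by S100A11, at 6.94, 8.20, 8.52 and 8.03. ANXA2, the partner of S100A10, changed by 0.23, -0.12 and -0.02, and the receptor gene AGER by -0.22, 0.07 and 0.02.

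Genes of the epidermal differentiation complex and its flanks share the chromosome arm with the S100 cluster. Of 30 such genes 23 were in the table and 12 expressed, with median changes of 0.05, 0.46 and 0.14. In erCriz0 2 were raised, both encoding small proline-rich proteins of the cornified envelope. SPRR1B was at 4.85, 7.65, 6.55 and 5.18, and SPRR3 at 3.78, 5.28, 4.70 and 3.76. In erAlec0 SPRR1B and TCHHL1 were raised (1.70 and 3.16) and TCHH, which encodes trichohyalin, was lowered (-1.21). None passed the limit in erLor0.

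Other genes of the region were examined in the same way. The 184 other expressed genes within 5 Mb of the S100A4 start had median RNA changes of -0.08, 0.25 and 0.10. Of them 5, 17 and 4 were raised and 3, 2 and 0 lowered. Within 2 Mb the medians over 71 genes were 0.09, 0.34 and 0.20, and 3, 10 and 4 genes were raised. Over all expressed genes the raised shares were 2.65%, 2.46% and 1.1%. Neighbouring genes in erAlec0 thus lay above the genome-wide median of 0.00 and were raised more often. In erLor0 neighbouring genes were also raised more often in both windows, and in erCriz0 within 2 Mb, with at most 4 raised genes in each of these sets. The S100 medians, which include S100P on chromosome 4, lay above those of the neighbouring genes in erAlec0 (0.98) and erLor0 (0.77). In erCriz0 the S100 median of 0.18 was close to the 0.09 of genes within 2 Mb. The 49 genes within 5 Mb of S100P had medians of -0.01, -0.09 and 0.02.

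**Figure D2:**
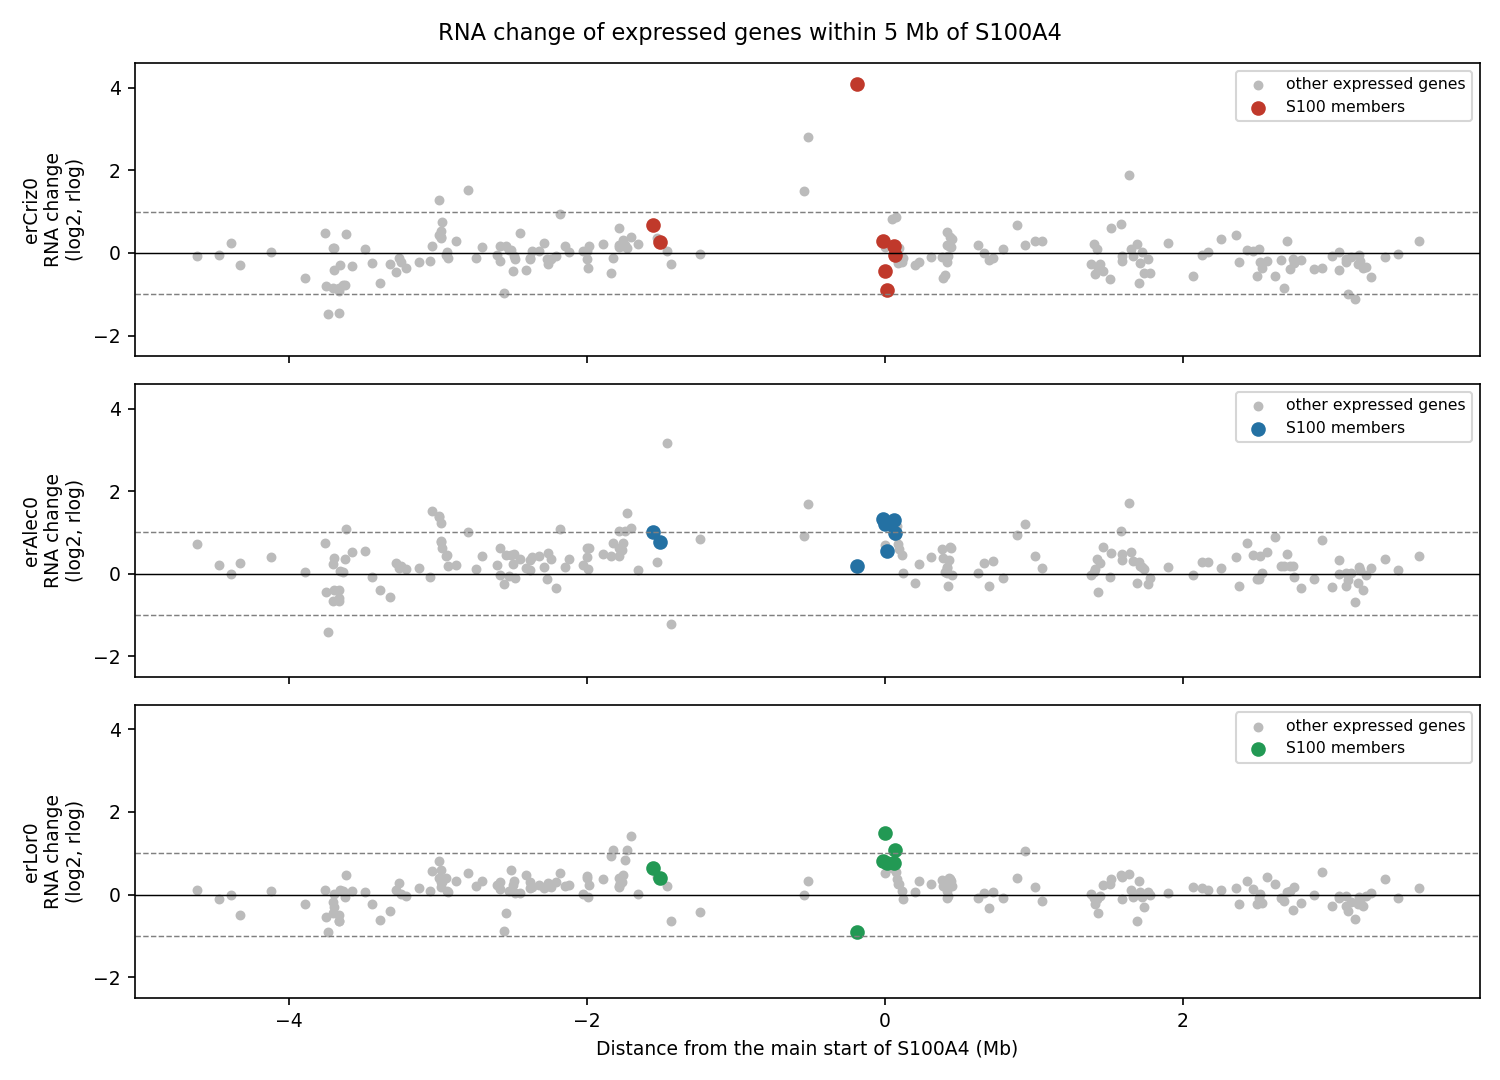
RNA change from naive (rlog, log2 scale) of expressed genes against the distance in Mb from the S100A4 start, 1 panel a resistant line. Grey points are the 184 other genes together with S100A1, S100A3 and S100A13. Coloured points are the 8 described S100 genes of chromosome 1, and dashed lines mark -1 and 1. S100A9 stands at 4.09 in erCriz0, and in erAlec0 it stands at 0.18 while the other 7 coloured points lie between 0.55 and 1.32.

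The starts of 8 of the 9 genes lay under 6 broad acetylated domains. The H3K27ac rlog of a peak covers its whole length and was not adjusted for it, so long and short peaks cannot be ranked by strength. S100A4 and S100A2 shared a domain of 40925 bp (153539495 to 153580419 on chromosome 1) with an H3K27ac rlog of 14.86 in naive. S100A16 and S100A14 shared one of 19158 bp (153601868 to 153621025, 14.15). S100A6 had one of 9278 bp (153530131 to 153539408, 13.55), S100A10 one of 13407 bp (151982991 to 151996397, 13.64), S100A11 one of 24216 bp (152028845 to 152053060, 14.34) and S100P one of 13092 bp (6685515 to 6698606 on chromosome 4, 11.98). For comparison, the median length of all peaks was 522 bp. Reads of a domain with 2 starts cannot be assigned to either gene.

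Acetylation over these starts stayed within the limit in each line. The changes of the 6 domains ranged from -0.37 to 0.19 in erCriz0, from -0.47 to 0.23 for erAlec0 and from -0.20 to 0.32 for erLor0, so 0 reached the limit. Of all peaks, 7% were raised and 5.94% lowered in erCriz0. For erAlec0 14.1% were raised and 9.41% lowered, and for erLor0 7.45% and 8.82%. Of the 6348 peaks of at least 5 kb, 380, 696 and 635 were raised and 129, 780 and 496 lowered. Most broad peaks thus stayed within the limit too, and 0 of 6 does not set these domains apart. In erAlec0 the domain over S100A6 changed by -0.47 and that over S100A4 and S100A2 by -0.34 while the RNA of all 3 genes was higher than in naive. In erLor0 the same 2 domains changed by -0.20 and -0.16 while S100A4 RNA rose by 1.48. RNA and start acetylation had the same sign of change in 4 of 8 genes in erCriz0, whereas erAlec0 had 5 such genes and erLor0 had 3. The 8 genes lie under only 6 domains, so a shared domain counts more than once. No such share was computed for other genes, so these counts do not set the S100 genes apart. The domain over S100P had the highest change of the 6 in each line (0.19, 0.23 and 0.32), and the RNA of S100P had the narrowest range over the 4 lines. Signs near 0 turned with the scaling: centring took the domain over S100A6 in erCriz0 from -0.03 to 0.06, and quantile normalization that over S100A16 and S100A14 in erLor0 from 0.05 to -0.06.

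**Figure D3:**
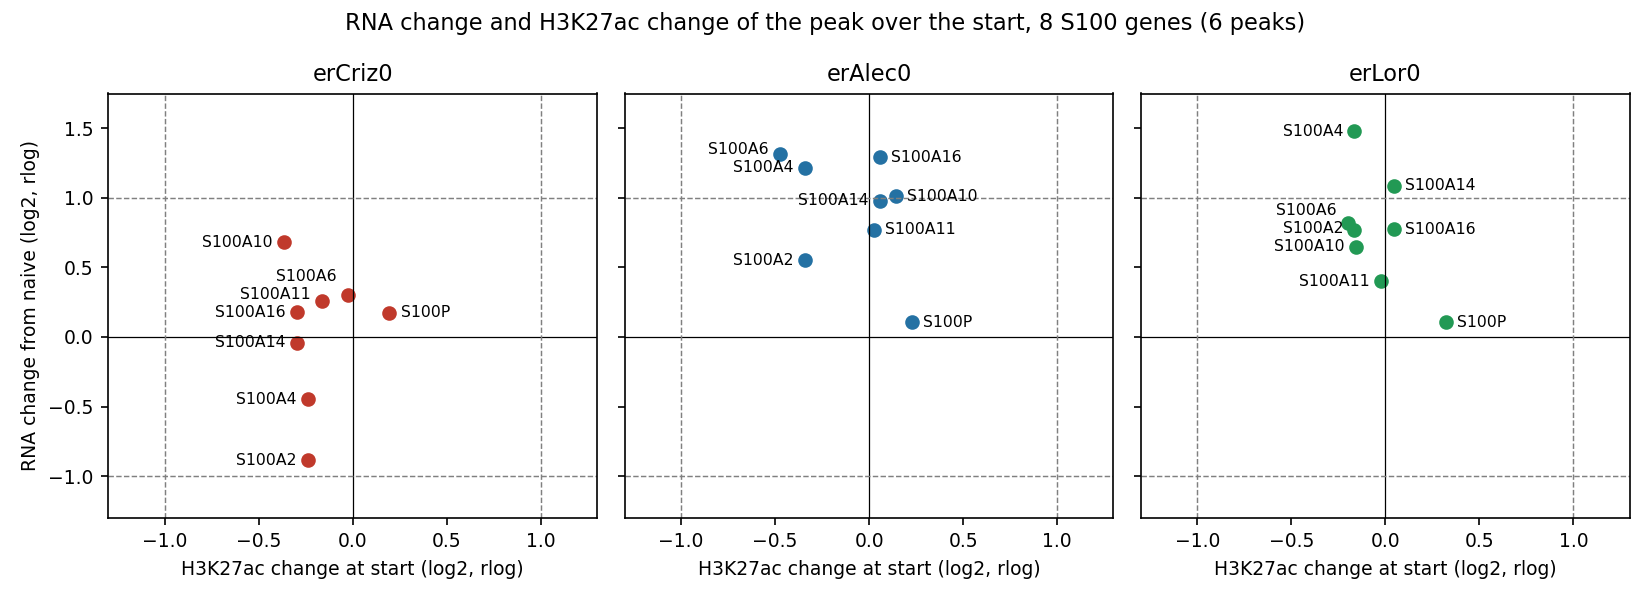
RNA change against H3K27ac change of the peak over the start (both rlog minus naive, log2 scale) for 8 S100 genes, 1 panel a resistant line. Dashed lines mark -1 and 1. H3K27ac changes stay between -0.47 and 0.32, while RNA changes run from -0.88 to 1.48.

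S100A9 had no peak over its start. The nearest lay 6854 bp downstream of it (153364708 to 153365138) and 11948 bp upstream (153345555 to 153345906). Both were short, at 431 and 352 bp. The downstream peak was at 5.87, 6.26, 6.62 and 5.62, and the upstream peak at 6.23, 6.43, 6.64 and 5.80. Both were highest in erAlec0, where S100A9 RNA changed by 0.18, and lowest in erLor0, where the RNA was also lowest. In erCriz0, where the RNA change was 4.09, the peaks changed by 0.39 and 0.20.

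Among all 47 paired peaks 0 were raised in any line, against 7%, 14.1% and 7.45% of all peaks. In erCriz0 41 were below naive, with a median of -0.79, and 16 (34.0%) were lowered, against 5.94% of all peaks. In erAlec0 3 (6.38%) and in erLor0 2 (4.26%) were lowered, with medians of -0.16 and -0.25. Both shares lay below the 9.41% and 8.82% of all peaks lowered in those lines. The 40 paired peaks on chromosome 1 had medians of -0.82, -0.19 and -0.30, with 37.5%, 7.5% and 5% lowered. The 992 other peaks within 5 Mb of S100A4 had medians of -0.24, 0.00 and -0.02, and 6.45%, 2.22% and 3.83% of them were lowered. Within 2 Mb, over 384 peaks, the erCriz0 median was -0.31 and 10.4% were lowered. Neighbouring peaks are not independent, and many flank the same domain.

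The lowered peaks were all short. The 11 paired peaks of at least 5 kb had medians of -0.28, 0.025 and -0.037, and 0 were lowered. Of all 6348 peaks of that length 2.03%, 12.3% and 7.81% were lowered. The 36 paired peaks under 5 kb had medians of -0.93, -0.19 and -0.43, with 16, 3 and 2 lowered (44.4%, 8.33% and 5.56%). Over the whole table the 120122 peaks under 5 kb had a median of -0.00 in erCriz0, and 6.15%, 9.26% and 8.87% of them were lowered. The share among short S100 peaks was thus above that of all short peaks in erCriz0 only. A further set held the short peaks whose next peak on either side was at least 5 kb long and within 1 kb. These 8088 had medians of -0.30, -0.33 and -0.25, so short peaks directly beside broad domains stood lower in each line also away from the S100 genes. The 10 S100 peaks of that kind had medians of -0.85, -0.28 and -0.50, and 3 of them were lowered in erCriz0, so most of the 16 peaks lowered there were not of that kind. A short peak parted from a broad domain by another short peak was not counted in this set, even within 1 kb.

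The stretches differed from one another. Around S100A16 and S100A14, 9 of 14 peaks were lowered in erCriz0 (median -1.04), against 0 in erAlec0 (-0.05) and 0 in erLor0 (-0.11). Around S100A10 and S100A11, 5 of 16 were lowered in erCriz0 and 1 in erLor0, with medians of -0.75, -0.13 and -0.60. Around S100A6, S100A4 and S100A2, 1, 3 and 1 of 9 were lowered, and the medians were -0.79, -0.68 and -0.55. The 5 peaks paired with S100A4 were below naive in every line although its RNA was raised in erAlec0 and erLor0. On chromosome 4 the 7 peaks of S100P had medians of 0.15, 0.05 and 0.20, with 1 lowered in erCriz0.

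**Figure D4:**
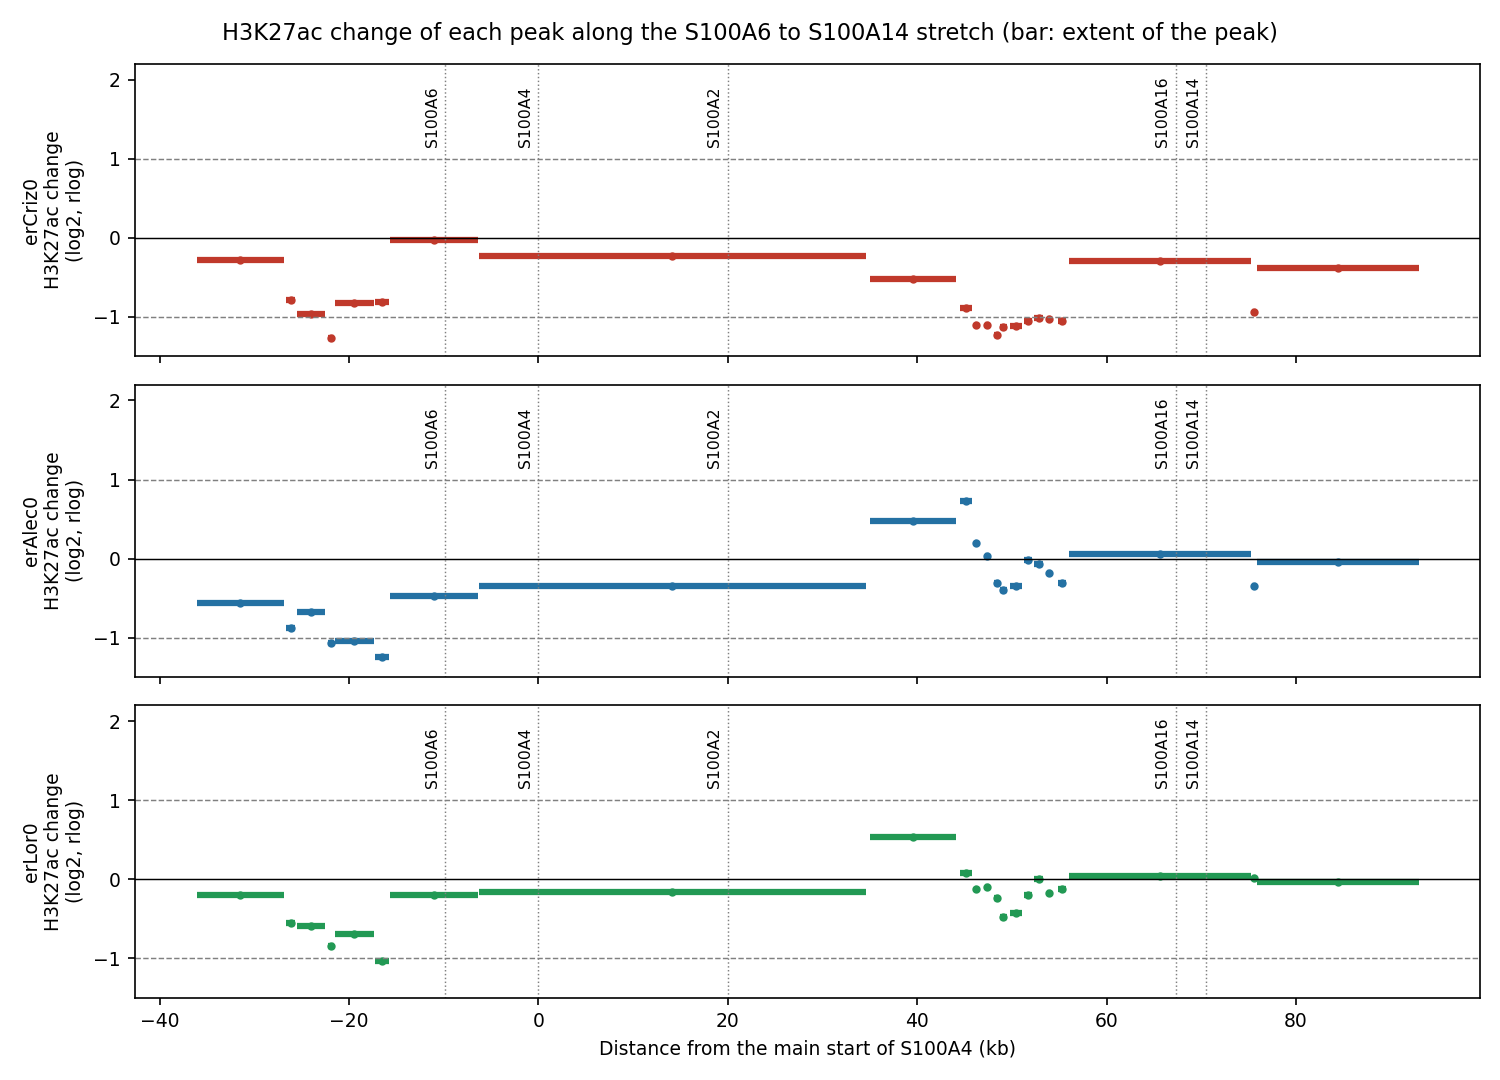
H3K27ac change from naive (rlog, log2 scale) of each peak along the stretch from S100A6 to S100A14 against the distance in kb from the S100A4 start, 1 panel a resistant line. Bars show the extent of each peak, points its middle, dotted lines the gene starts and dashed lines -1 and 1. Broad peaks stay between -0.57 and 0.54, and the short peaks between S100A2 and S100A16 lie near -1 in erCriz0 alone.

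The extremes fell at a few sites. The lowest change in erCriz0 was -1.27, at a peak of 638 bp paired with S100A4 and S100A6 (153523565 to 153524202), where erAlec0 and erLor0 changed by -1.06 and -0.85. The lowest in erAlec0 was -1.25, at a nearby peak of 1416 bp (153528601 to 153530016). In erLor0 it was -1.10, at a peak of 320 bp paired with S100A10 (151966458 to 151966777). The highest change in erCriz0 was the 0.39 of the peak downstream of S100A9. In erAlec0 and erLor0 it was at a domain of 8271 bp paired with S100P (6666906 to 6675176 on chromosome 4), with 0.75 in both.

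For the 6 genes that were raised in some line, the expressed genes with the nearest pattern were found by the Euclidean distance between the 3 changes, over 12353 genes outside the lists and 4 libraries. S100A4 was nearest to AQP3 (0.39), NOTCH3 (0.41) and NUPR1 (0.50), and S100A14 to SIPA1L2 (0.077), ACOXL (0.13) and CELSR1 (0.18). S100A6 and S100A16 shared PLAGL1 and TVP23B, with ADAM8 nearest to S100A6 (0.13) and TMPRSS11E nearest to S100A16 (0.089). S100A10 was nearest to PLEKHG1 (0.083), ITGA5 (0.14) and MICAL1 (0.15). For S100A9 the distances were larger, with MX2 first at 0.99, followed by SERPINA1 at 1.38 and SERPINB3 at 1.42. The distance is not scaled to the size of the changes, so it cannot show whether S100A9 is more singular than the others. MX2 too was high in erCriz0 alone, with changes of 3.95, 0.01 and 0.06.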

How the data were processed

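Each line of the deposited table pairs a peak with a gene no more than 20 kb away. The RNA and H3K27ac values are log2 quantities, namely rlog values made by the authors in DESeq2 across 4 libraries. RNA reads had been mapped to hg38 by HISAT2 and counted by HTSeq-count. ChIP reads had been mapped by BWA and cleared of duplicates and of reads without a unique place. MACS2 peaks from 4 samples were then joined, cleared of blacklisted regions and counted by featureCounts. Tool versions are not given in the sources used here, and no subtraction of input is described. A correlation score, its p-value before and after adjustment, and mean values, all computed by the authors, were not used. Of the series' samples, 4 are not analysed here: erCriz1, erLor1, the pooled input and cells treated with lorlatinib.

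Genes were matched by Ensembl identifier to symbols in GENCODE 44. Changes were rlog differences from naive, with a limit of 1. Named were all members, the peaks at their starts, the extreme paired peaks, listed genes past the limit and the 3 genes of nearest pattern. Distances were measured from the start of the canonical transcript, whose exon length gave levels per kilobase. Promoters matched for all 9 genes. The members, lists and limits were chosen with earlier results of these data known. With 1 library per line no test was possible. Alternatives were other limits and filters, centring on the median, quantile normalization, a distance of 5 kb, peak length, and leaving out S100A4 or S100A9. Scripts were checked on simulated data and run in Python 3.11.15 with numpy 2.4.6, pandas 2.3.3, matplotlib 3.10.9.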

Additional observations from a re-analysis of the deposited data

Results flagged for a closer look

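Some values lay above naive in one resistant line and below it in another. For RNA, S100A9 in erCriz0 and erLor0 lay 5.001 apart on the log2 scale, with erCriz0 the higher. S100A4 was 1.93 higher, S100A2 1.65 higher and S100A14 1.13 higher in erLor0 than in erCriz0, and S100A14 in erCriz0 differed from naive by only -0.04. For H3K27ac over starts, erAlec0 lay above erCriz0 by 0.51 at S100A10, by 0.35 at the domain shared by S100A14 and S100A16 and by 0.19 at S100A11. Each line has 1 library of each kind, so none of these differences was tested. The directions above and below naive rest on 1 naive library, and for S100A11 and the shared domain the erAlec0 change was 0.06 or less.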

How the results depend on the processing

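No paired analysis was possible because each line has 1 library of each kind. A limit of 1.5-fold gave 2 raised and 1 lowered S100 genes in erCriz0 and 6 and 1 in erLor0, and 29, 8 and 15 lowered peaks in erCriz0, erAlec0 and erLor0 with 3 raised in erAlec0 and 1 in erLor0. A limit of 2 gave 0 raised genes in erAlec0 and erLor0 and 0 lowered peaks in each line. Quantile normalization gave 2 and 1 raised genes in erAlec0 and erLor0, RNA medians of 0.00, 0.68 and 0.53 in erCriz0, erAlec0 and erLor0, 7 lowered peaks in erAlec0 and peak medians of -1.03, -0.27 and -0.42. It sets each value from its rank alone, so a gene that keeps its rank shows no change. The RNA median of 0.00 in erCriz0 is the value of S100A11, and S100A14 came to 0.82 in both erAlec0 and erLor0. Centring gave 0 lowered peaks in erLor0 and a peak median of -0.15 there, and shifted H3K27ac changes by up to 0.10 and RNA changes by up to 0.05. Without S100A4, 1 gene was raised in erLor0 and the erAlec0 median was 0.88. Without S100A9 (added after seeing the data), 0 were raised in erCriz0, which had to be so because it was the only raised gene there. Over the 15 peaks within 5 kb, 4, 1 and 1 were lowered and the erCriz0 median was -0.38. By length (added after seeing the data), peaks of at least 5 kb gave 0 lowered and medians of -0.28, 0.025 and -0.037, and shorter peaks gave medians of -0.93 in erCriz0 and -0.43 in erLor0. The cause of these shifts was not tested, apart from the fewer members that a subset holds. The remaining 92 counts and medians moved by at most 1.5 times or 0.1, among them 6 raised genes in erAlec0 at a limit of 1.5-fold and 24 lowered peaks in erCriz0 under quantile normalization. None of the 47 peaks was paired with exactly 1 gene, so that setting gave no value. Depth is unknown from rlog values, and weak genes such as S100A4 and S100A9 are the ones most drawn toward their mean.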
